A study of Homo sapiens with 2 samples.

Results

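LSD1 peaks were examined at 7 genes whose RNAs work without being translated and outside the spliceosome: RN7SK, RN7SL2, RMRP, TERC, SNORD118, SNORD3A and VTRNA1-3. They are 7 of the 64449 genes annotated on the 24 chromosomes of hg19. A gene was counted as having a peak when any base of a peak lay in the gene or within 1 kb of either end, and 5 peaks of the 20110 in the list met that rule. The genes were chosen by their peaks in this same list, so their counts, positions and scores are a description and carry no test.

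The study mapped LSD1 in PC-3M-luc cells, a human prostate carcinoma line that carries a luciferase reporter. The LSD1 library came from chromatin immunoprecipitated with an antibody to LSD1, and the input library from the same line without it. Both are labelled with the genotype Control and passages 17 to 20, and each arm is 1 library, so no difference here has a replicate check. The deposited result is a single peak list. Each peak has a position and a score, which ran from 50 to 3226.07 with a median of 205.87 and is not on a stated scale, and peaks had a median width of 1649 bp. The score is the authors' own value for each peak and is used only to rank and describe peaks. The reads behind a peak were not analysed here, so the depth is unknown, and a gene without a peak is one where none passed the authors' threshold.

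LSD1 (KDM1A) is a demethylase that removes methyl groups from histone H3 and works with corepressors such as CoREST. RNA polymerase III makes short untranslated RNAs such as 7SK, 7SL, RMRP, the vault RNAs, the Y RNAs, U6 and 5S rRNA. Some of these genes are driven by upstream elements (a TATA box with a proximal and a distal element), and others by boxes inside the gene. TERC and the stand-alone snoRNA genes SNORD118 and SNORD3A are transcribed by RNA polymerase II.

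The starts of these genes are shown first, because each peak is described relative to them. Each run reads 5′ to 3′ along the RNA gene from 100 bases before its start to base 20 of the gene, so the gene begins at base 101. Capitals mark a TATA box (TATAAA or TATATA). The runs are from GRCh37 (hg19): RN7SK on the plus strand at chr6:52860319-52860438, RN7SL2 on the minus strand at chr14:50329548-50329667, RMRP on the minus strand at chr9:35657995-35658114, TERC on the minus strand at chr3:169482829-169482948 and SNORD3A on the plus strand at chr17:19091229-19091348.
RN7SK: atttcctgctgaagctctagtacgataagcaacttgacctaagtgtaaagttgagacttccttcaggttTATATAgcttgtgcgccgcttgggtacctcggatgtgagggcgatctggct
RN7SL2: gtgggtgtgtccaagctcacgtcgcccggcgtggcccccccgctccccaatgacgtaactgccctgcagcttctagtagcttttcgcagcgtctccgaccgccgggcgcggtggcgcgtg
RMRP: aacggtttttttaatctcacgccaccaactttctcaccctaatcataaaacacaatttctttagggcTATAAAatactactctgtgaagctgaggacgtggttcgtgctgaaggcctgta
TERC: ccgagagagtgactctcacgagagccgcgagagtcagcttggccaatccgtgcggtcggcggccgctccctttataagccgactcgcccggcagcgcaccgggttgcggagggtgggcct
SNORD3A: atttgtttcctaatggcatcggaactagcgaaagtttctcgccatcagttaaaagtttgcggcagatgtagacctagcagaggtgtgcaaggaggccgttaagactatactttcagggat
A TATA box lay 31 to 26 bases before the start of RN7SK and 33 to 28 bases before that of RMRP. The other 3 runs hold neither string, though the TERC run holds the near match tataag before its start.

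The vault RNA genes are shown side by side because VTRNA1-3 has no peak while its neighbours VTRNA1-1 and VTRNA1-2 do. All 3 are on the plus strand of GRCh37 (hg19), and the start regions, drawn as above, are at chr5:140105643-140105762, chr5:140090760-140090879 and chr5:140098410-140098529.
VTRNA1-3: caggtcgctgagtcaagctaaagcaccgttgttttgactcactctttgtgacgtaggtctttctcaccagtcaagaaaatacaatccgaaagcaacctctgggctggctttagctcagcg
VTRNA1-1: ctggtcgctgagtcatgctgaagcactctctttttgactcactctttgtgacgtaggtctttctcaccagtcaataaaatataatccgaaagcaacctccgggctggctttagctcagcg
VTRNA1-2: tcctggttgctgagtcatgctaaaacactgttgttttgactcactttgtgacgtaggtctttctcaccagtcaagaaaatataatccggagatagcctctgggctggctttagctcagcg
In the whole genes, at chr5:140105743-140105831, chr5:140090860-140090958 and chr5:140098510-140098598, capitals mark the B box (GTTCGANNC), the internal element that TFIIIC reads.
VTRNA1-3 gene: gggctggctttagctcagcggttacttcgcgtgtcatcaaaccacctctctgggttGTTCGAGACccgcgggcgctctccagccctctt
VTRNA1-1 gene: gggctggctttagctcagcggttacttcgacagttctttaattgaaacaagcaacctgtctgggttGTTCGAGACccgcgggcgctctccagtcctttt
VTRNA1-2 gene: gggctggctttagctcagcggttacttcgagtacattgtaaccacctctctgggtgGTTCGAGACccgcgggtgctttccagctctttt

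LSD1 peaks lay over RN7SK, RN7SL2, RMRP, TERC and SNORD118, and no peak lay within 1 kb of SNORD3A or VTRNA1-3. The count was thus 5 of 7, where 28.7% of all annotated genes, 62.2% of protein-coding genes, 25.1% of lncRNA genes and 7.41% of the annotated small RNA genes met the same rule. The rule searches a longer stretch at longer genes. Within 1 kb of the annotated gene start alone, these shares were 24.3%, 52.8%, 20.7% and 7.29%. In all 5 cases the peak covered the whole RNA gene, its start included. Their scores ran from 239.46 to 3196.17 with a median of 936.06, and their widths from 2055 to 4945 bp with a median of 2153 bp. All 5 were wider and higher in score than the median peak. The median best score at protein-coding starts with a peak was higher, at 464.69, and RN7SK alone of the 5 lay below it. The peak midpoint lay upstream of the RNA start in 4 of the 5, and the median offset was -342.5 bp, where a negative value is upstream along the RNA gene's strand.

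**Figure D1:**
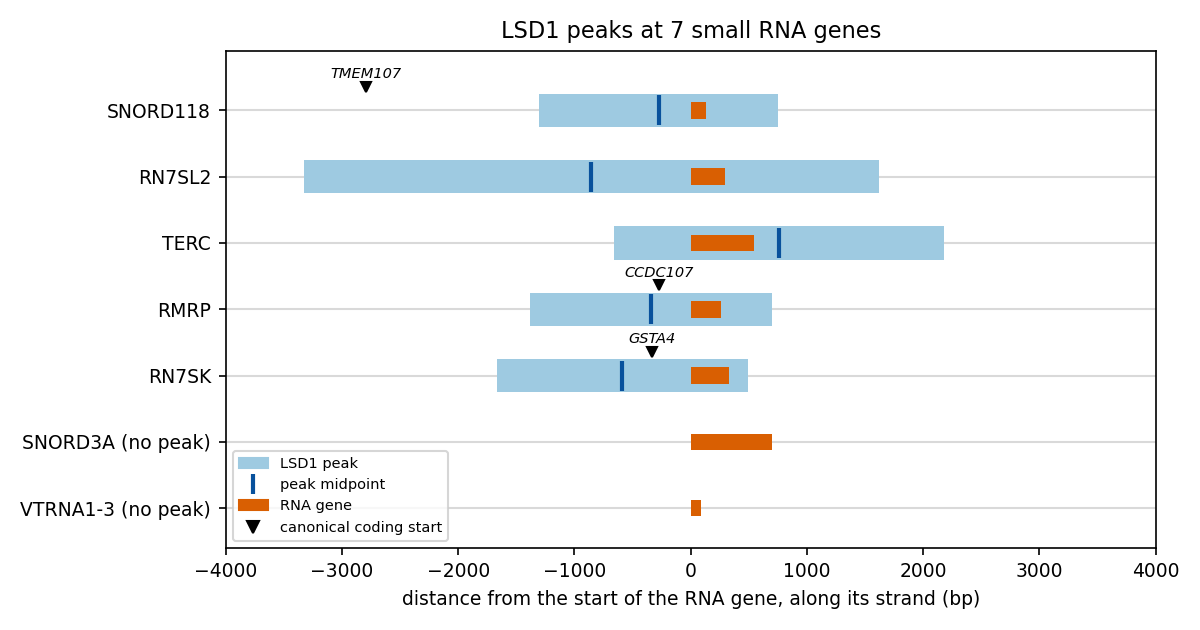
LSD1 peaks (blue bars) and their midpoints (dark lines) relative to the start of each RNA gene (orange), in bp along the gene's strand; triangles mark canonical starts of protein-coding genes. The peaks of SNORD118, RN7SL2, RMRP and RN7SK are centred upstream of the RNA start, that of TERC downstream, and SNORD3A and VTRNA1-3 have none.

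SNORD118 encodes U8, a box C/D snoRNA needed to mature the 5.8S and 28S rRNAs, and had the highest-scoring of these peaks. The gene has 134 bp at chr17:8076772-8076905 on the minus strand, inside an untranslated exon of TMEM107 on the same strand. Its peak at chr17:8076155-8078209 was 2055 bp wide with a score of 3196.17. That score was among the 19 above 3100, a value that 206 peaks share exactly, so ranks at this end of the list separate peaks poorly. The width exceeded 65.6% of all peaks. The midpoint lay 277 bp upstream of the U8 start (offset -277 bp), and 343.5 bp upstream of the middle of the gene. No protein-coding start lay under it. The canonical TMEM107 start lay 2793 bp upstream of the U8 start and 1489 bp outside the peak, and had a separate peak of 1100 bp with a score of 183.33. The 2 starts on this stretch thus sat under separate peaks, and the one over U8 had by far the higher score.

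RN7SL2 encodes 7SL, the RNA of the signal recognition particle, which directs secretory proteins to the endoplasmic reticulum. The gene has 297 bp at chr14:50329271-50329567 on the minus strand and overlaps an exon of an unnamed lncRNA on the same strand. Its peak, at chr14:50327950-50332894, was the broadest of the 5 at 4945 bp, wider than 95.2% of all peaks. It scored 1028.5, above 89.8% of peaks. It reached 3327 bp upstream and 1617 bp downstream of the RNA start, with its midpoint at -855 bp. No protein-coding start lay under it, and the start of an opposite-strand lncRNA lay 223 bp upstream of the 7SL start. The nearest coding starts were those of ARF6, a small GTPase, 26906 bp outside the peak, and of NEMF, a ribosome quality-control factor, 8444 bp outside it. Both had a peak of their own, with scores of 1365.73 and 274.12. RN7SL3, a second 7SL gene, lay under the NEMF peak.

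TERC, the RNA template of telomerase, had a peak shifted the other way. The gene has 541 bp at chr3:169482308-169482848 on the minus strand. Its peak at chr3:169480674-169483507 was 2834 bp wide and scored 936.06, above 88.2% of peaks. It reached 659 bp upstream and 2174 bp downstream of the RNA start, and its midpoint lay 757.5 bp downstream, past the end of the gene. It held no protein-coding start. The nearest, that of ACTRT3 on the same strand, lay 3842 bp outside it and had a peak of 1041 bp with a score of 138.28. MECOM, a transcription factor gene on the other side, started 99174 bp outside the peak and had one scoring 516.82.

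RMRP encodes the RNA of RNase MRP, which cuts precursor rRNA. The gene has 264 bp at chr9:35657751-35658014 on the minus strand. The peak at chr9:35657319-35659394 was 2076 bp wide and scored 549.46, above 75.5% of peaks, with its midpoint 342.5 bp upstream of the RNA start. It also held 5 start sites of CCDC107, which is transcribed away from RMRP on the opposite strand. The canonical one lay 275 bp upstream of the RMRP start, and all 5 lay between 273 and 300 bp upstream. The peak midpoint was therefore nearer to the CCDC107 starts than to the RMRP start. SIT1, the coding gene on the other side, started 6391 bp outside the peak and had none.

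RN7SK encodes 7SK, the scaffold that holds the elongation kinase P-TEFb inactive, and had the lowest-scoring of the 5 peaks. The gene has 328 bp at chr6:52860419-52860746 on the plus strand and is entered under 2 identifiers in the annotation, the start of the other being 1 bp upstream. The peak at chr6:52858756-52860908 was 2153 bp wide and scored 239.46, above 53.9% of peaks. It reached 1663 bp upstream of the RNA start and 489 bp downstream, with its midpoint at -587 bp. It held 4 start sites of GSTA4, a glutathione S-transferase gene on the opposite strand. The canonical one lay 337 bp upstream of the 7SK start and the farthest 1360 bp upstream. The next peaks were 323913 and 65132 bp away and scored 72.81 and 74.47. Where a small RNA and a coding start lie under 1 peak, as here and at RMRP, the list does not say to which the signal belongs, and the 2 cannot be told apart.

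SNORD3A encodes U3, the box C/D snoRNA of 18S rRNA processing, and had no peak. The gene has 699 bp at chr17:19091329-19092027 on the plus strand. The nearest peaks were 123980 and 49004 bp away. The nearer lay at EPN2 and scored 94.41, and the other, scoring 349.32, lay over SNORD3B-2, a second copy of U3. Reads are hard to place here, since only 0.0750% of the 32-base words of the gene and its 1 kb flanks occurred at a single place in the reference, and the median word occurred at 5 places. The kilobase before SNORD3A was 100% identical to that before SNORD3C, 99.7% identical to that before SNORD3B-1 and 96.8% identical to that before SNORD3B-2. SNORD3C had no peak either. At SNORD3B-1 and SNORD3B-2 peaks of 382 and 610 bp lay inside the gene, from 156 to 537 and from 100 to 709 bp after the start. Under those peaks 12.0% and 12.4% of words were unique, against 1.56% and 2.97% in the rest of each gene and its flanks. The handling of reads with several placements is not given in the sources used here, and its part in the absence of a peak was not tested.

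VTRNA1-3 encodes a vault RNA, carried by a large cytoplasmic ribonucleoprotein, and had no peak either. The gene has 89 bp at chr5:140105743-140105831 on the plus strand, inside an intron of an unnamed lncRNA. The nearest peak was 6889 bp away, well outside the 1 kb rule, and was the one over VTRNA1-2. On the other side the next was 239469 bp away with a score of 353.96. The nearest coding starts were those of ZMAT2, 25711 bp upstream with a peak of 130.07, and of PCDHA1, 59982 bp downstream with none. Its 2 neighbours in the cluster had narrow peaks close to their starts. VTRNA1-2 had a peak of 826 bp with a score of 683.8 and a midpoint at -68.5 bp, and VTRNA1-1 one of 1098 bp with a score of 443.42 and a midpoint at -131.5 bp.

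The vault genes printed above are close relatives. VTRNA1-3 matched VTRNA1-2 at 87.8% of aligned positions over the gene and 83.5% over the 250 bases before it. Against VTRNA1-1 the values were 83.0% and 84.3%. Between VTRNA1-2 and VTRNA1-1, which both have a peak, they were 81.8% and 83.7%. All 3 genes hold the same B box, GTTCGAGAC, at bases 57 to 65 of VTRNA1-3 and VTRNA1-2 and at bases 67 to 75 of VTRNA1-1. VTRNA1-1 and VTRNA1-2 end in TTTT, the run at which polymerase III stops, whereas VTRNA1-3 does not, and none followed within 50 bases of its end. Most short words at VTRNA1-3 were unique, unlike those at SNORD3A: 94.8% of the gene's 32-base words and 75.4% of those in the kilobase before it were unique. The same 2 shares were 100% and 83.1% for VTRNA1-2 and 94.1% and 71.2% for VTRNA1-1.

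**Figure D2:**
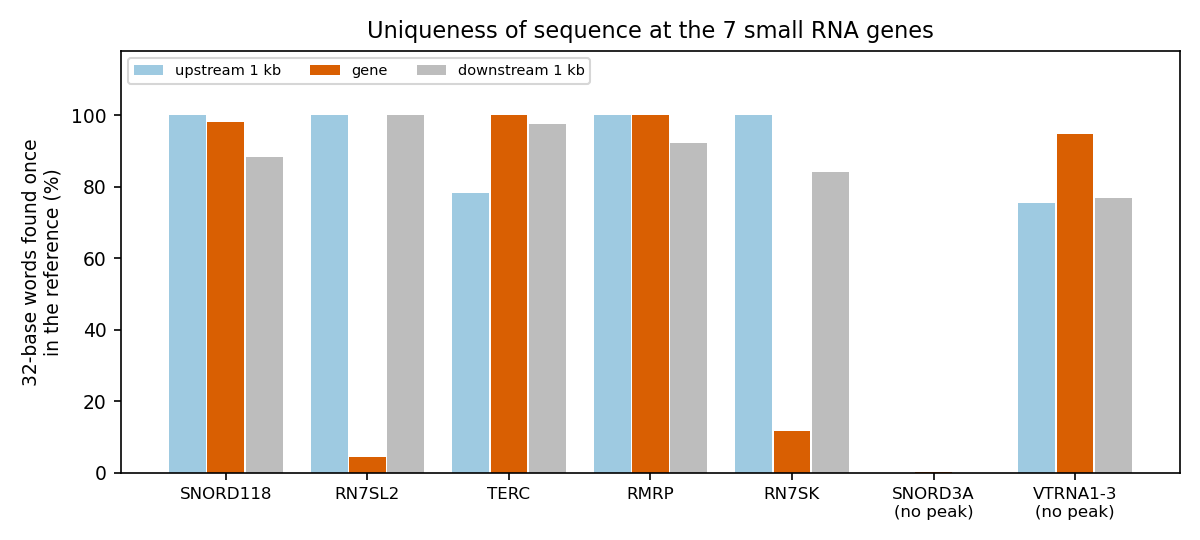
Share of 32-base words (%) that occur at a single place in the hg19 reference, in the kilobase upstream, the gene and the kilobase downstream of each RNA gene. SNORD3A is near 0 in all 3 parts, RN7SK and RN7SL2 are low within the gene (11.8% and 4.51%) but at 100% upstream of it.

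For RN7SK and RN7SL2, whose many genomic copies share their sequence, unique 32-base words were rare within the gene but made up 100% of the upstream kilobase. With words of 50 bases the shares within the gene were 22.9% at RN7SK and 12.1% at RN7SL2, and those upstream remained 100%. RMRP had 100% unique words in the gene and upstream, TERC 100% and 78.3%, and SNORD118 98.1% and 100%. At TERC, 98.9% of the words under the peak were unique, against 32.3% in the part of the gene and flanks outside it, which lies upstream. The downstream shift of the TERC peak stands beside that difference, whose part in it was not tested.

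The promoters differ among themselves. Over the 300 bases from 250 before the start to base 50 of the gene, GC content was 64.7% at RN7SL2, 58.7% at TERC, 52.3% at VTRNA1-3, 44.3% at RMRP, 44% at RN7SK, 42.7% at SNORD118 and 37% at SNORD3A. The median of 19862 protein-coding promoters was 63.7%, and RN7SL2 alone of the 7 lay above it. The peak with the highest score was thus at a GC-poor promoter. SNORD118 had the highest ratio of observed to expected CpG, at 1.11, and VTRNA1-3 the lowest, at 0.585.

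Elements of small RNA promoters were sought in the same window. A TATA box (TATAAA or TATATA, gene strand) was in 2 of the 7, RN7SK and RMRP, and in 9.42% of protein-coding promoters. The octamer ATGCAAAT (both strands), the site of the POU factors that drive snRNA-type genes, was in RMRP alone, 217 to 210 bases before the start, and in 1.58% of coding promoters. The ZNF143 site CCCANNATG (both strands) was in RN7SK, 153 to 145 bases before the start, and in SNORD118, 197 to 189 bases before it, and in 4.40% of coding promoters. The SP site GGGCGG (both strands) was in RN7SL2, RMRP and TERC and in 61.5% of coding promoters, and the ETS site CCGGAAG (both strands) in RN7SL2 and in 14.2%. As exact strings, the cyclic AMP element TGACGTCA and the E-box CACGTG (both strands) were in none of the 7. Their shares among coding promoters were 2.68% and 8.77%. The printed runs hold near matches of TGACGTCA, tgacgtaa at RN7SL2 and tgacgtag at the vault genes, VTRNA1-3 included, which were not counted. TTTT (gene strand) was in all 7 windows and in 45.2% of coding ones, and the B box (GTTCGANNC, gene strand) in no window and in 0.373%. The window stops at base 50 of the gene and so could not hold the B box of VTRNA1-3, which begins at base 57. Of the motifs sought, none was held by all 5 genes with a peak other than TTTT, which the 2 without one hold too. The proximal element named above was not among those sought. A match is a string of letters and does not show a site in use.

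Other polymerase III genes were read the same way, from a list of 34 of which 32 were in the annotation. The 1 kb rule was met by 14 of the 32, against 28.7% of all annotated genes and 7.41% of annotated small RNA genes. Of protein-coding canonical starts, 55.6% had a peak within 1 kb. Outside the 5S rRNA array, a split added after seeing the data, 13 of 15 genes met the rule. All 13 had a peak over their start. Scores ran from 81.81 to 719.54 with a median of 355.18, and widths from 667 to 2688 bp with a median of 1612 bp. The midpoint lay upstream of the start at 11 of the 13, with a median offset of -248.5 bp, and 10 of the 13 peaks held no protein-coding start. In order of score they were RNU6-2 at 719.54, VTRNA1-2 at 683.8, RNY5 at 598.67, VTRNA1-1 at 443.42, RNU6-1 at 432.46, RNU6-9 at 364.9, RNU6-7 at 355.18, RNU6-8 at 354.64, RN7SL3 at 274.12, RNU6ATAC at 229.01, RNY4 at 85.66, RNY3 at 84.27 and RNY1 at 81.81. RNU6 genes encode U6 snRNA, RNU6ATAC the U6atac snRNA of the minor spliceosome, and RNY genes the Y RNAs that bind Ro60. Coding starts lay under the peaks of RNU6-2 (TMEM259), RNU6-9 (MED16) and RN7SL3 (NEMF).

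The 4 Y RNA genes thus split, with RNY5 well above the median of all peaks and RNY1, RNY3 and RNY4 well below it. VTRNA2-1 and BCYRN1, which encode a vault-like RNA and the neuronal BC200 RNA, had no peak. Of the 17 annotated 5S genes only RNA5S17 had one within 1 kb, with a score of 760.43, and it lay 401 bp upstream of the gene without reaching it. The 5S array is repetitive: at 16 of its 17 genes at most 5.17% of the 32-base words of the gene and its flanks were unique, and at RNA5S17 18.2% were.

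Among the stand-alone polymerase II small RNA genes outside the 7, 4 of the 6 in the annotation had a peak within 1 kb. Under the same rule 28.7% of all annotated genes and 7.41% of annotated small RNA genes had one. RNU7-1, the U7 RNA of histone mRNA end processing, had a peak of 3161 bp with a score of 2837.9 and a midpoint at -347 bp, and SNORD13, the U13 snoRNA, one of 1660 bp with a score of 1911.34 and a midpoint at -47.5 bp. Both peaks also held a coding start, of C12orf57 and TTI2. With SNORD118 these were the 3 highest scores of all the small RNA genes listed. SNORD3B-1 and SNORD3B-2 had the internal peaks given above, and SNORD3C and SCARNA7 had none.

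**Figure D3:**
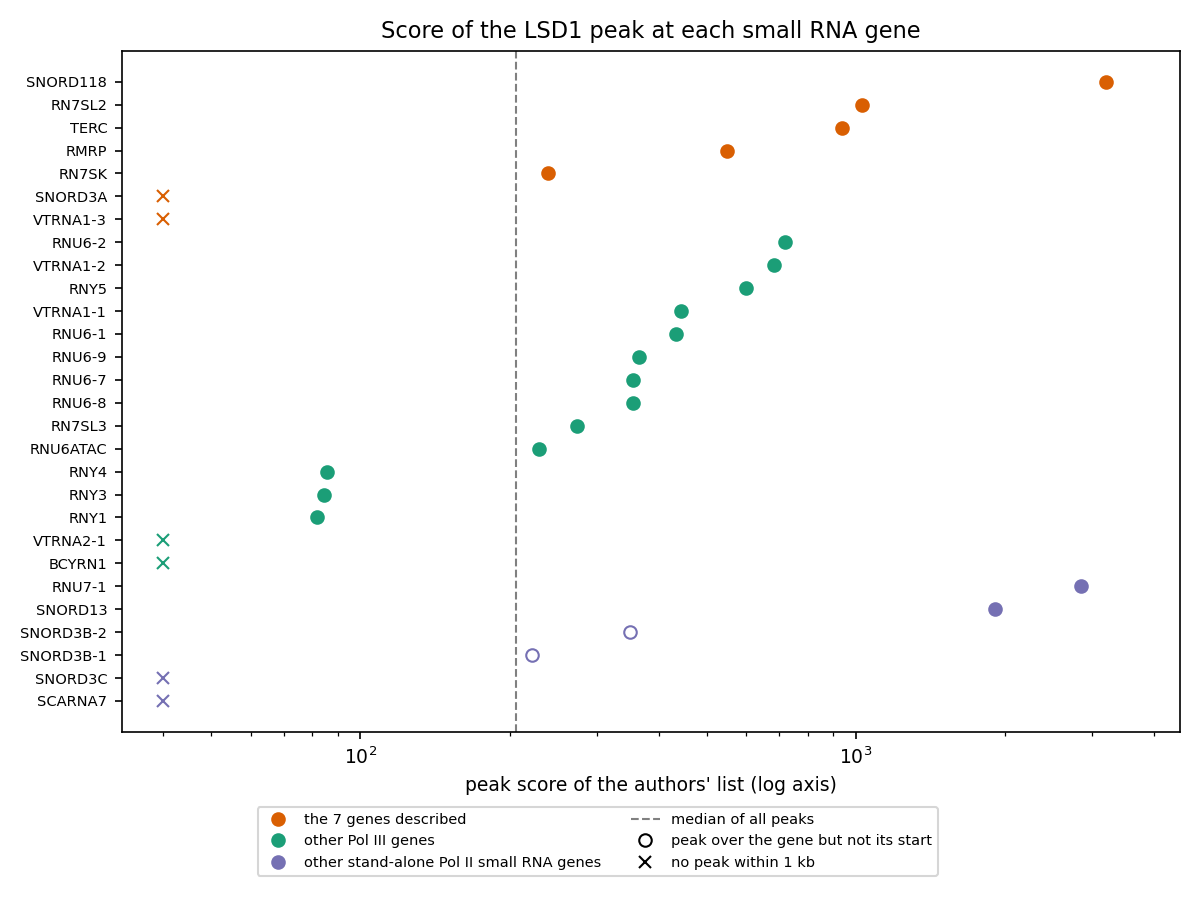
Score of the LSD1 peak at each listed small RNA gene outside the 5S array, on a log axis: the 7 genes described (orange), other polymerase III genes (green) and other stand-alone polymerase II genes (purple); the dashed line is the median of all peaks, 205.87. Filled points are peaks over the RNA start, open points peaks over the gene but not its start, and crosses genes without a peak. The 3 highest are SNORD118, RNU7-1 and SNORD13, and RNY1, RNY3 and RNY4 lie below the line.

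RN7SK and RN7SL2 belong to families with many annotated copies, whereas RMRP has 5. Of 859 copies of 7SL, 30 had a peak within 1 kb, or 3.49% (exact 95% interval 2.37 to 4.95%). Of 295 copies of 7SK, 4 did, or 1.36% (0.371 to 3.44%), and the 2 families together had 2.95%. The RMRP copies had 0 of 5 and the U8 copies 0 of 26, counts that allow shares of up to 52.2% and 13.2% (exact 95% upper bounds). Of the U3 copies 3.70% had a peak, of the Y RNA copies 3.74%, of the U6 copies 2.64% and of the 5S copies 2.94%. Intervals cover counting error only.

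Peaks near copies often sat at coding genes. Coding starts lay under 17 of the 30 peaks at 7SL copies, and the 3 highest, all scoring 3100, held those of DDIT3, MARS1 and MBD6 at RN7SL312P, of RPL8 and ZNF34 at RN7SL395P and of MAP2K7 at RN7SL115P. At the 7SK copies the scores were 1173.74 at RN7SKP114, whose peak held a start of UBAP2, 372.1 at RN7SKP239, 83.5 at RN7SKP11 and 71.42 at RN7SKP80. RN7SK, at 239.46, was thus below the best of its copies in score, and RN7SL2, at 1028.5, below the best of its own. Among classes of small RNA, snoRNA genes had a peak most often, at 11.9%, and the median best score of those 173 genes was 1375.72. For only 57 of the 173 did the best peak hold no coding start, and the median width of the best peaks was 4354 bp. snRNA genes had 4.75%, misc_RNA genes 3.64%, rRNA genes 6.25% and miRNA genes 9.48%.

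**Figure D4:**
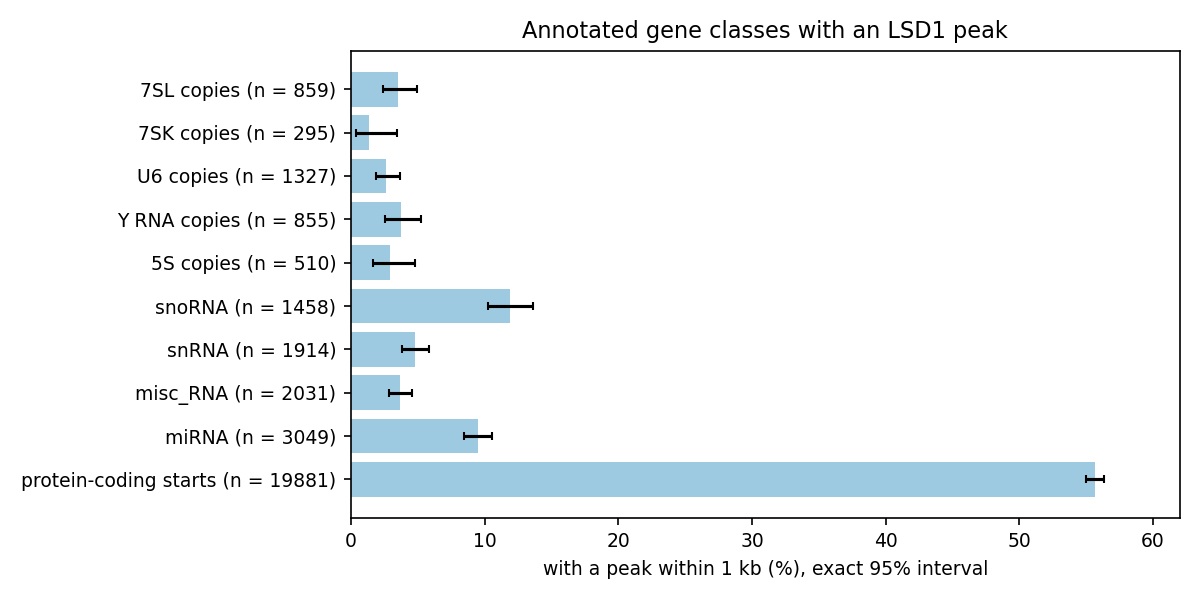
Share of annotated copies and classes (%) with an LSD1 peak within 1 kb, with exact 95% intervals that cover counting error only; for protein-coding genes the share is of canonical starts. All copy families lie under 5%, snoRNA genes at 11.9% and protein-coding starts at 55.6%.

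The proteins that make these RNAs or bind them are encoded by ordinary polymerase II genes, listed here in 8 groups. A peak lay within 1 kb of the canonical start of 70 of 72, against 55.6% of all protein-coding canonical starts, and their median score was 816.03, against 464.69 over all coding starts with a peak. Expression was not measured here, and its part in these shares and scores was not tested.

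Of the 13 polymerase III subunits, 12 had a peak, with a median score of 883.96. POLR3E scored 3184.43, POLR3G 2617.6 and POLR3D 1770.51, and POLR3A, the largest subunit, had none. All 19 transcription factors of small RNA genes had one, with a median of 969.47. ZNF143 scored 3100, MAF1, the repressor of polymerase III, 3008.41, and the TFIIIC subunit GTF3C4 2244.74.

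Particle proteins were covered as widely. All 7 genes of the 7SK particle and P-TEFb had a peak, with a median of 1578.17, the highest of the 8 groups. RN7SK itself scored 239.46, against 3100 at the kinase inhibitor HEXIM1, 2677.91 at the capping enzyme MEPCE and 1710.58 at cyclin T1 (CCNT1). All 6 signal recognition particle genes had one, with a median of 503.03. RN7SL2 scored 1028.5, against 1459.48 at SRP54, 1366.97 at SRP72 and 637.45 at SRP68. All 11 RNase P and MRP protein genes had one, with a median of 622.27, beside 549.46 at RMRP. They were led by RPP21 at 1210.31, RPP38 at 788.13 and RPP40 at 726.55.

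TERC had a peak of 936.06, and 7 of the 8 telomerase protein genes had one, with a median of 481.05. WRAP53 scored 1388.3, though its canonical start lay outside the peak, NHP2 983.89 and DKC1, dyskerin, 764.89. TERT, the reverse transcriptase, had none. SNORD118 scored 3196.17, above all 5 box C/D snoRNP genes, led by NOP56 at 1744.96, RRP9 at 1419.34 and NOP58 at 916.4. VTRNA1-3 had no peak, while all 3 vault protein genes had one, PARP4 at 1240.97, MVP at 916.38 and TEP1 at 886.24.

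**Figure D5:**
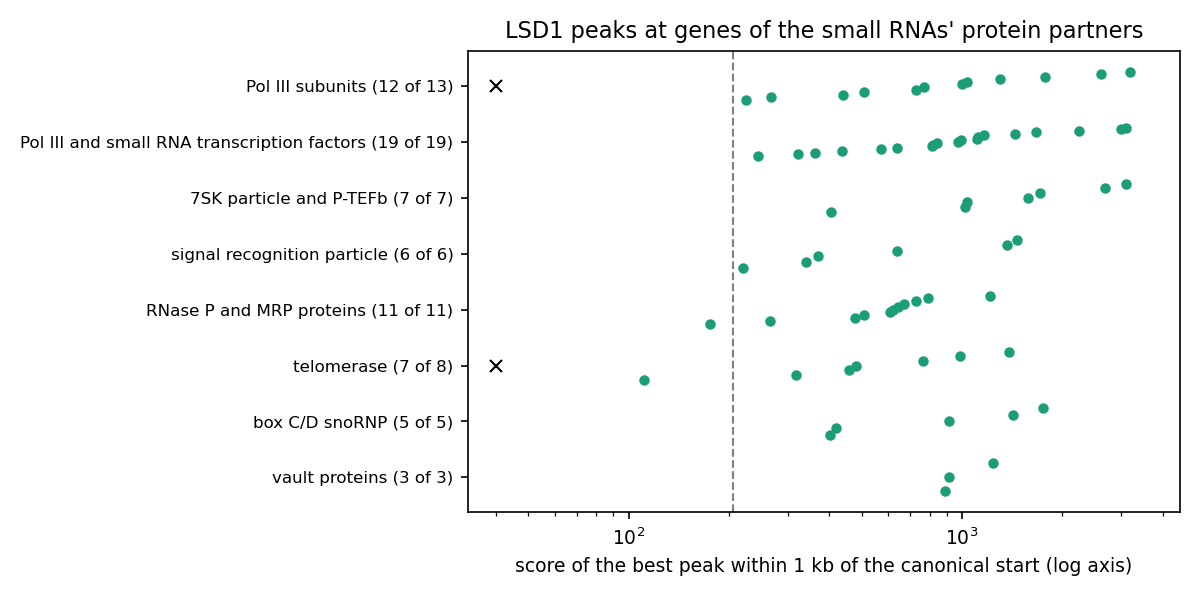
Score of the best LSD1 peak within 1 kb of the canonical start of each gene in the 8 protein groups, on a log axis; each point is a gene, crosses are genes without a peak, the counts are genes with a peak of those listed, and the dashed line is the median of all peaks, 205.87. The 2 crosses are POLR3A and TERT.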

How the data were processed

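LSD1 ChIP and input DNA were sequenced from PC-3M-luc cells, 1 library each. Per the labels' protocols reads were mapped to hg19 with bowtie 2, and the submitters' processing notes name MACS 1.41, Bowtie2, hg19 and mm10. The deposited peak score has no stated scale. It was read from its values as a scaled −log10 of the caller's p-value, and the authors' score served only to rank and describe peaks. Peak settings, duplicate handling and read numbers are not given in the sources used here. The peaks were taken as called against input, an assumption based on the sample titles, which name an LSD1 and an input library.

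All 20110 peaks lie within the 24 chromosomes of GRCh37. Genes came from GENCODE 44 mapped to GRCh37, and coordinates are 1-based. Where a symbol had 2 entries the manually curated one was used. A peak counted for a gene within 1 kb of it, and for a protein-coding gene within 1 kb of its canonical start where so stated. Words of 32 bases were looked up on both strands of the reference, and motifs as plain letters. Identity was taken from global alignments. The overlap and motif steps were tested on simulated data. Python 3.11.15, pandas 2.3.3, scipy 1.17.1, numba 0.67.0 and Biopython 1.88 were used. RPPH1, RN7SL1, SNORD3D and SCARNA2 were not analysed here.

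The genes and lists were chosen with earlier results of these data known. Named were all 7 genes, every listed small RNA gene, up to 3 partner genes a group by score (and the 2 without a peak, chosen after their values were seen), the coding starts under or nearest each peak, and the copies with the highest scores. Flanks, score minimums, peak width and word length were varied.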

Additional observations from a re-analysis of the deposited data

How the results depend on the processing

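The count of 5 of 7 genes with a peak was the same with no flank, with a flank of 5 kb, with scores of at least 100, with scores at or above the median and without the widest 1% of peaks. Values given above already fix this. The 5 peaks covered their whole genes, scored at least 239.46 against a median of 205.87, and were at most 4945 bp wide. The widest 1% of peaks exceeded 8786.48 bp. The nearest peak to either gene without one was 6889 bp away. The share of small RNA genes with a peak, 7.41%, was 5.11% with no flank, 15.1% with 5 kb, 6.46% at scores of at least 100 and 5.65% at or above the median. For the 7SL and 7SK copies together, 2.95% became 1.47% with no flank, 13.0% with 5 kb and 1.82% at or above the median. Listed polymerase III genes outside the 5S array with a peak, a count added after seeing the data, fell to 10 of 15 at scores of at least 100, where RNY1, RNY3 and RNY4 were lost. With words of 50 bases, unique words were 0.755% at SNORD3A and 92.6% at VTRNA1-3. No offset changed sign when measured from the middle of the RNA gene. Each of the 5 genes had a single peak within 1 kb, so taking the peak with the nearest midpoint could not change an offset. The other values are counts or shares, which cannot change sign. No paired analysis was possible because there is 1 library an arm and 1 peak list. With 1 library an arm and unknown depth, binding at SNORD3A or VTRNA1-3 below the authors' threshold could not be seen.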
